A study of Mus musculus with 6 samples.

Results

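The 10 transcripts described here encode the enzymes that put double bonds into fatty acids (Scd1, Scd2, Fads1, Fads2 and Fads6) and those that lengthen them (Elovl1, Elovl2, Elovl3, Elovl5 and Elovl6). They were taken from a liver expression table by gene symbol, and all 10 were among its 17738 genes with values. 3 libraries came from livers of ICR mice, an outbred stock, dosed by gavage for 1 week with 1 g/kg per day of an extract: the ethyl acetate fraction of water-soluble material from Chebulae Fructus. 3 libraries came from ICR mice given water at 10 ml/kg by the same route for 1 week. Chebulae Fructus is the dried fruit of Terminalia chebula. No genetic change is named for either group, and the labels give no sex, age, cage or sampling day. Whether each library is its own animal is not said, and p-values therefore reflect library-to-library spread, which may be technical. The libraries are called extract 1 to 3 and water 1 to 3, after their labels.

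Fatty acids made in the liver start as palmitate. Elovl6 lengthens palmitate to stearate, and stearoyl-CoA desaturase (Scd) turns these saturated chains into palmitoleate and oleate, the monounsaturated fatty acids that go into stored triglyceride and cholesterol esters. Dietary linoleate and linolenate take another route, in which Fads2, Elovl5, Fads1 and Elovl2 act in turn to give arachidonate and docosahexaenoate (DHA), which are built into membranes. In liver, both routes are driven by the transcription factor SREBP-1c downstream of insulin and of the sterol receptor LXR, and they are restrained by dietary polyunsaturated fat. Fatty acid elongation needs further shared enzymes, and the desaturases receive electrons from cytochrome b5 and its reductase.

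Levels are FPKM (sequenced fragments divided by transcript length and library size), a unit inferred from the values and not named in the table. Each library's values summed to between 517984 and 583245 FPKM, and 15440 to 15601 genes were above 0. Read totals were not given, so counting error is unknown. A gene was tested if it reached 1 FPKM in at least 3 libraries. This left 10282 genes, 9 of the 10 desaturases and elongases among them; Elovl3 reached that level in only 2 libraries. The test was limma on log2(FPKM + 1), so fold changes are on that scale, which understates changes of low genes. Calls were made where the Benjamini-Hochberg adjusted p was under 0.05. In a principal component analysis extract 3 was the extract library closest to water on the first axis, and water 1 was far from all others on the second.

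Stearoyl-CoA desaturase 1, the elongase Elovl6 and the delta-five desaturase Fads1 were lower in every extract library than in every water library. Scd1 averaged 35.8% of its water mean in extract livers, Elovl6 31.0% and Fads1 54.6%. In bulk tissue, fewer cells of a type and less RNA per cell cannot be told apart. None of the 9 tested genes was called over all genes tested, where 5 genes were (0.0486% of 10282), 3 of them lower (0.0292%). At an unadjusted limma p below 0.05, 3 of the 9 were lower, against 3.82% of all genes tested, and 0 were higher (10.3% of all genes passed in either direction). In 3 of the 9 the extract libraries all lay below the water libraries, against 5.88% of all genes tested (15.9% did not overlap in either direction). Scd1, Fads1 and Elovl6 make up both counts. Without water 1 the first count was 5, with Fads2 and Elovl5 added, against 6.06% of all genes. Without water 1 and extract 3, a choice made after seeing the data, it was 6, with Fads6 added, against 7.46%. Leaving out 1 library at a time gave 0 to 49 called genes, the 49 without extract 3, and no desaturase or elongase was among them. 8 of the 9 fold changes were negative, where 42.5% of all genes tested had a negative one, and the median log2 fold change was -0.43 against 0.03 over all genes tested. The negative signs of Elovl2 (-0.0031) and Scd2 (-0.08) turned when some single libraries were left out, as did the positive sign of Elovl1 (0.01).

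**Figure D1:**
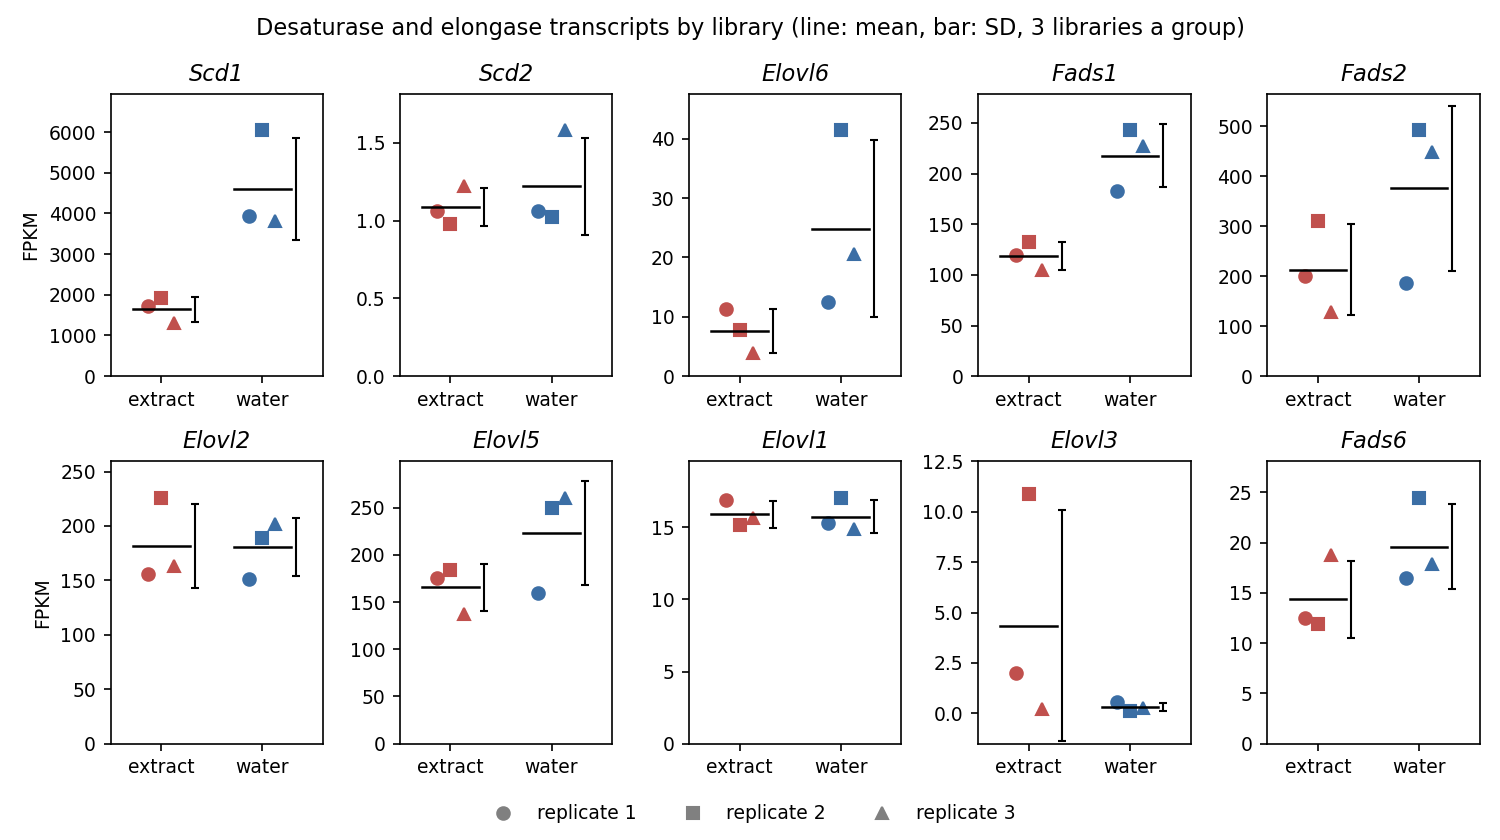
FPKM of each desaturase and elongase gene in the 3 extract libraries (red) and the 3 water libraries (blue), with a line at the group mean and a bar for the SD; each panel has its own linear axis. Scd1, Elovl6 and Fads1 have no extract library as high as any water library, while Elovl3 is above 1 FPKM only in extract 1 and extract 2.

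On GRCm38 (GENCODE annotation), 5 of the 10 genes lie on chromosome 19. Fads2 (10062765 to 10101746, minus strand) and Fads1 (10182888 to 10196877, plus strand) start 81.1 kb apart and are read away from each other, and Fads3 lies beyond Fads2. Scd2 (44293674 to 44306864, plus strand) and Scd1 (44394455 to 44407879, minus strand) lie in 1 cluster with Scd3 and Scd4, and Elovl3 (46131897 to 46135694) is 1724 kb from the Scd1 start. The others are Elovl6 on chromosome 3 (129532355 to 129638495), Elovl1 on chromosome 4 (118428093 to 118432953) and Elovl5 on chromosome 9 (77917364 to 77984519), with Fads6 on chromosome 11 (115279622 to 115297663) and Elovl2 on chromosome 13 (41182381 to 41220405). Scd2, a neighbour of Scd1, and Fads3, a neighbour of Fads1 and Fads2, overlapped between the groups. Fads3, Scd3 and Scd4 stood at or below 3.93 FPKM in every library.

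RefSeq promoter windows (GRCm38.p6, 250 bases before to 50 after a start) were given for Elovl1, Elovl2, Elovl5, Elovl6, Fads2 and Fads6, and not for Scd1, Scd2, Fads1 and Elovl3. They were searched on both strands for the sterol response element TCACNCCAC, the NF-Y box CCAAT, the Sp1 box GGGCGG and the E-box CACGTG, which occur in 1.24%, 37.4%, 35.7% and 7.15% of all 32851 windows and in 1.27%, 37.8%, 61.9% and 10.2% of the 10617 windows of tested genes. The 250 bases upstream of 4 starts are printed to set Elovl6, the elongase with separated groups, beside the polyunsaturated genes Fads2, Elovl5 and Elovl2; capitals mark any of the 4 motifs, on either strand.
Elovl6, chr3:129532136-129532385, plus strand: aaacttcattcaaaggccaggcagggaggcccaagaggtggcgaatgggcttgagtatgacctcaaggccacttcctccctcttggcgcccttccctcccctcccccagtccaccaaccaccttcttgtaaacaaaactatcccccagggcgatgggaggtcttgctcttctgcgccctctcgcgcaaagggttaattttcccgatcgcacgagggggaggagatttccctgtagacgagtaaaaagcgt
Fads2, chr19:10101504-10101753, minus strand: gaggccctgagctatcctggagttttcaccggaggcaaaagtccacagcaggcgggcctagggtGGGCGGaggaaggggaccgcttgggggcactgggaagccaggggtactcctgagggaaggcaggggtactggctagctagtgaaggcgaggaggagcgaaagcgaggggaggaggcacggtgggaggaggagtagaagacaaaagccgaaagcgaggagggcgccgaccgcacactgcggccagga
Elovl5, chr9:77917115-77917364, plus strand: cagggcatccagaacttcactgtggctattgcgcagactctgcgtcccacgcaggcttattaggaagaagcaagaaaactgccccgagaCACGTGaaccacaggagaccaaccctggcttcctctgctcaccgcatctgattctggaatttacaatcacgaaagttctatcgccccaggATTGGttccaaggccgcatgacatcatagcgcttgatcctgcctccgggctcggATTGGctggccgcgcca
Elovl2, chr13:41220404-41220653, minus strand: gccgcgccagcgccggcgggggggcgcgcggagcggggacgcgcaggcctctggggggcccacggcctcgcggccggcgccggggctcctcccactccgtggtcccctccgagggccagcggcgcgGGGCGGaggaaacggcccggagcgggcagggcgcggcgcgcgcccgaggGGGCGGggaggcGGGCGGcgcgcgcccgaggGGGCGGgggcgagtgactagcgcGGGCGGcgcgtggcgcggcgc

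The Elovl6 window held none of the 4 motifs. The Fads2 window held 1 Sp1 box, 186 bases before its RefSeq start at base 10101503. The GENCODE start given above is at 10101746. Nearly all of the printed Fads2 stretch, the Sp1 box included, therefore lies inside the gene as GENCODE places it. Elovl5 held 2 NF-Y boxes, at 71 and 17 bases before the start, and 1 E-box at 161. The first Elovl2 window held 5 Sp1 boxes and was 84.7% G and C, against 55.7% for Elovl6. Of the windows not printed, the first of Elovl1 held 1 NF-Y box and 5 Sp1 boxes, the second 2 Sp1 boxes, and that of Fads6 held 1 Sp1 box. TCACNCCAC was in no window of the 6 genes. These matches describe letters only, and a missing match says nothing about a factor.

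In the monounsaturated branch, Scd1 makes oleate and palmitoleate and is the main stearoyl-CoA desaturase of adult mouse liver. Scd1 had 1724.65, 1911.88 and 1308.46 FPKM in extract 1, 2 and 3, against 3941.74, 6042.63 and 3814.26 FPKM in water 1, 2 and 3. All extract libraries were low and the groups were far apart, with water 2 the highest. Scd1 averaged 1648 ± 309 FPKM in extract livers and 4600 ± 1251 FPKM in water livers (mean ± SD, n = 3 per group here and below). Its log2 fold change was -1.46 with a standard error of 0.24 and a 95% interval of -2.01 to -0.92, and limma's adjusted p was 0.0959. By level it ranked 43 of 17738 genes in extract livers and 12 in water livers. It made up 0.296% ± 0.048 of a library's FPKM sum in extract livers and 0.854% ± 0.259 in water livers.

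Elovl6, which makes the stearate that Scd1 uses, had 11.34, 7.78 and 3.92 FPKM in extract 1, 2 and 3. It had 12.47, 41.40 and 20.56 FPKM in water 1, 2 and 3. The groups met closely at extract 1 and water 1, and both groups were spread out, with a highest-to-lowest ratio of 2.89 in extract and 3.32 in water livers. Elovl6 averaged 7.68 ± 3.71 FPKM in extract livers and 24.8 ± 14.9 FPKM in water livers. Its log2 fold change of -1.51 had an interval of -2.56 to -0.46 and a limma adjusted p of 0.298. Without water 1 the fold change was -1.90, with an adjusted p of 0.163, and without water 2 it was -1.07.

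Scd2, the isoform known from brain and from newborn mouse liver, was near the lower limit of the test. It had 1.06, 0.98 and 1.22 FPKM in extract 1, 2 and 3, against 1.06, 1.02 and 1.58 FPKM in water 1, 2 and 3. The groups overlapped, and the log2 fold change of -0.08 had an interval of -0.39 to 0.23 (limma adjusted p = 0.916). Scd2 averaged 1.09 FPKM beside 1648 FPKM of Scd1 in extract livers, and 1.22 FPKM beside 4600 FPKM of Scd1 in water livers, so almost all stearoyl-CoA desaturase transcript was Scd1 in both groups. The 2 genes are close copies on chromosome 19, and RSEM, one of the listed tools, divides reads among similar genes by estimation, so a small Scd2 level beside a very abundant Scd1 is uncertain.

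In the polyunsaturated branch, Fads2 catalyses the first desaturation, Elovl5 the next elongation, Fads1 the second desaturation and Elovl2 the last elongations towards DHA. Fads1 had 119.31, 132.53 and 104.76 FPKM in extract 1, 2 and 3, against 182.88, 242.67 and 227.44 FPKM in water 1, 2 and 3. The groups did not overlap, with water 1 the lowest of the water libraries. Fads1 averaged 119 ± 13.9 FPKM in extract livers and 218 ± 31.1 FPKM in water livers, with a log2 fold change of -0.86, a standard error of 0.15 and an interval of -1.22 to -0.51. Its limma adjusted p was 0.117.

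Fads2 had 200.99, 310.10 and 128.33 FPKM in extract 1, 2 and 3, against 186.52, 491.98 and 448.59 FPKM in water 1, 2 and 3. Extract 1 and extract 2 lay above water 1 and below the other water libraries, so the groups overlapped. The mean was 213 ± 91.5 FPKM in extract livers and 376 ± 165 FPKM in water livers, a ratio close to that of Fads1, but with an interval of the log2 fold change from -1.78 to 0.21 (limma adjusted p = 0.593). Without water 1 the Fads2 log2 fold change was -1.23 with a limma adjusted p of 0.207, and without extract 3 it was -0.47.

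Elovl5, which lengthens the products of Fads2, had 176.07, 184.07 and 137.51 FPKM in extract 1, 2 and 3. In water 1, 2 and 3 it had 159.72, 249.81 and 260.52 FPKM. Water 1 lay within the extract range, and the other water libraries were above it. Its log2 fold change was -0.41 with an interval of -0.90 to 0.09 (limma adjusted p = 0.581). It was -0.63 without water 1, and -0.28 without extract 3 or without water 3.

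Elovl2, needed for DHA synthesis in mice, had 155.58, 225.84 and 163.45 FPKM in extract 1, 2 and 3, against 151.36, 189.12 and 201.97 FPKM in water 1, 2 and 3. The groups overlapped over nearly their whole range. Elovl2 averaged 182 ± 38.5 FPKM in extract livers and 181 ± 26.3 FPKM in water livers, and the interval of its log2 fold change ran from -0.43 to 0.42 (limma adjusted p = 0.997). The fitted change was -0.0031, and it was above 0 after quantile normalization. That interval leaves out the Scd1 and Fads1 fold changes of -1.46 and -0.86; the difference between these genes was not tested.

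Elovl1 makes very long saturated and monounsaturated chains for sphingolipids and was the steadiest of the 10. It had 16.92, 15.14 and 15.61 FPKM in extract 1, 2 and 3, against 15.32, 17.04 and 14.85 FPKM in water 1, 2 and 3. The groups overlapped, with a spread of 5.81% of the mean (SD) in extract and 7.33% in water livers. The log2 fold change of 0.01 had an interval of -0.24 to 0.27 (limma adjusted p = 0.982), and its sign turned under every rescaling of the libraries tried. Fads6, a desaturase by family whose substrate is not settled, had 12.48, 11.86 and 18.73 FPKM in extract 1, 2 and 3, against 16.52, 24.46 and 17.86 FPKM in water 1, 2 and 3. Extract 3 lay inside the water range and the other extract libraries below it, with a log2 fold change of -0.43 and an interval of -0.91 to 0.05 (limma adjusted p = 0.534). It was -0.63 without extract 3, with an unadjusted limma p of 0.0117, and -0.27 without water 2.

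**Figure D2:**
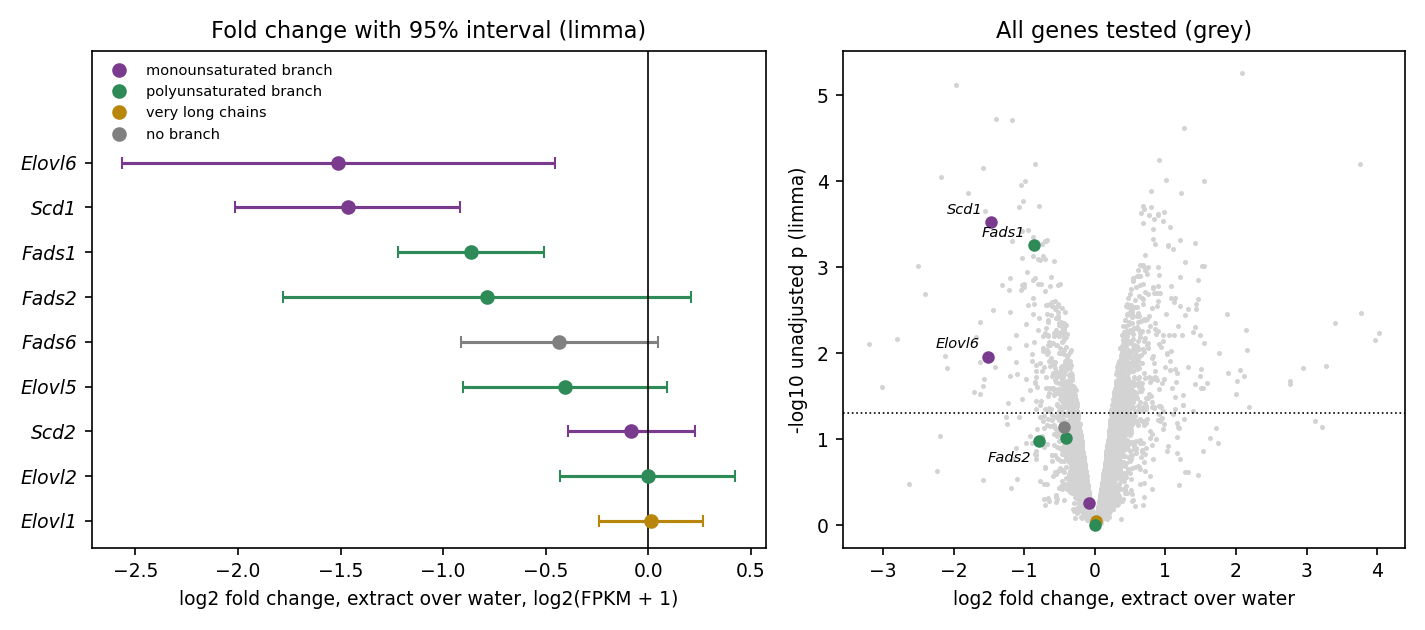
Left, log2 fold change of extract over water on the log2(FPKM + 1) scale with its 95% limma interval for the 9 tested desaturases and elongases, coloured by branch. Right, the same fold changes against -log10 of limma's unadjusted p for all 10282 genes (grey), with a dotted line at the 0.05 level; Scd1, Fads1 and Elovl6 lie above the line on the lower side.

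Elovl3, which makes very long saturated and monounsaturated chains and in mouse liver is known for higher expression in males and a daily rhythm, differed most between libraries of one group. It had 1.98, 10.89 and 0.20 FPKM in extract 1, 2 and 3, against 0.54, 0.13 and 0.28 FPKM in water 1, 2 and 3. Extract 2 was by far the highest, extract 1 was also above all water libraries, and extract 3 lay within the water range. The difference of mean log2(FPKM + 1) was 1.42, with a two-sided exact permutation p of 0.3 over the 20 assignments of 3 and 3 libraries, which can give no p below 0.1. Without extract 2 the difference was 0.53, and without extract 3 it was 2.19.

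Hsd3b5 and C8a are likewise more highly expressed in male than in female mouse liver. Hsd3b5, a steroid dehydrogenase, had 48.35, 109.17 and 22.48 FPKM in extract 1, 2 and 3, against 2.44, 2.44 and 3.4 FPKM in water 1, 2 and 3. C8a, a complement component, had 158.84, 193.93 and 147.60 FPKM in extract 1, 2 and 3, against 91.04, 86.76 and 102.74 FPKM in water 1, 2 and 3. For both genes all extract libraries lay above all water libraries, unlike Elovl3. Such a placement held for 10.0% of all genes tested. Neither gene was called (limma adjusted p = 0.0792 for Hsd3b5 and 0.117 for C8a). Nudt7, a peroxisomal hydrolase of coenzyme A, averaged 218 ± 78.6 FPKM in extract livers and 75.9 ± 16.6 FPKM in water livers (limma adjusted p = 0.17). The clock repressor Nr1d1 averaged 37.1 ± 5.97 FPKM in extract livers and 15.7 ± 4.73 FPKM in water livers (limma adjusted p = 0.117). Of 20 tested clock and male-biased genes, 10 were higher and 1 lower at an unadjusted limma p below 0.05, against 6.50% and 3.82% of all genes, and the median log2 fold change was 0.38. Most of those higher were male-biased genes. Among the clock genes, Nr1d1 and Dbp were higher and Nfil3 lower at that p. Clock, Per1, Per2, Cry1, Nr1d2, Tef and Ciart overlapped between the groups and did not pass it. Cyp2d9 and Susd4 of the same list also overlapped and did not pass it, with log2 fold changes of 0.32 and -0.26. Arntl and Npas2 were too low to be tested. Arntl was 0.30 to 0.35 FPKM in extract and 0.42 to 0.65 FPKM in water libraries. Of all genes tested, Arntl not among them, 5.88% had all extract libraries below all water libraries. The labels give no sampling time, and the part of sex or time of day in the Elovl3 values was not tested.

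**Figure D3:**
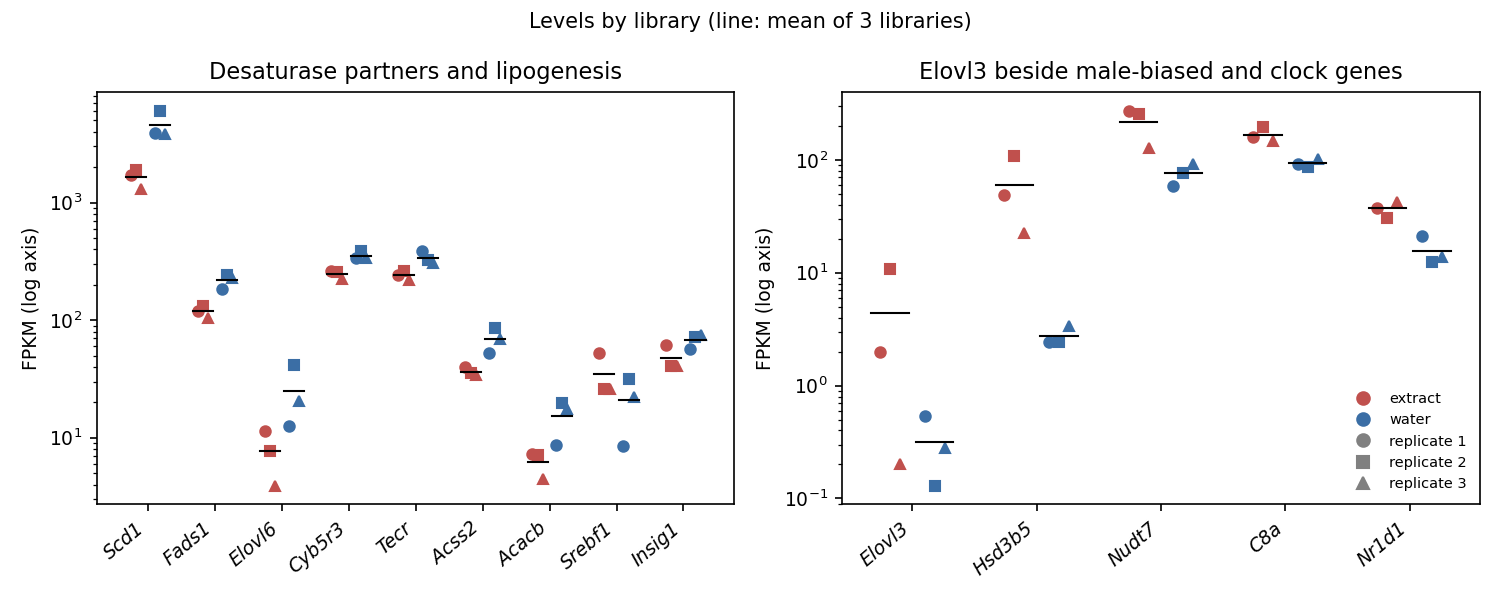
FPKM on a log axis in the extract libraries (red, left of each pair) and the water libraries (blue), with a line at each group mean. Left, Scd1, Fads1 and Elovl6 beside the electron donor Cyb5r3, the elongation enzyme Tecr, Acss2, Acacb and the regulators Srebf1 and Insig1. Right, Elovl3, whose groups overlap, beside Hsd3b5, Nudt7, C8a and Nr1d1, whose groups do not.

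The branches were set against each other within each library, which removes any scaling of the whole library. The monounsaturated branch was the sum of Scd1, Scd2 and Elovl6, and the polyunsaturated branch the sum of Fads1, Fads2, Elovl2 and Elovl5. Their ratio was 2.66, 2.25 and 2.46 in extract 1, 2 and 3, against 5.81, 5.19 and 3.37 in water 1, 2 and 3. All extract libraries were below all water libraries and closer together, and the difference of the mean log2 ratio was -0.93. Scd1 makes up nearly all of the first sum, so the ratio is mainly that of Scd1 to the polyunsaturated genes. With equal weight per gene, as the difference of the branches' mean log2(FPKM + 1), it was -2.19, -2.67 and -2.45 in extract 1, 2 and 3, against -1.83, -1.78 and -2.19 in water 1, 2 and 3. Extract 1 and water 3 nearly touched, and the difference between the group means was -0.50; this weighting was added after seeing the data. Scd1 was 68.0% to 71.3% of the summed FPKM of the 10 genes in extract libraries and 76.2% to 84.4% in water libraries. No p is given for these sums, since the genes were chosen with earlier results known.

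The monounsaturated sum was 1314 to 1921 FPKM in extract libraries and 3836 to 6085 FPKM in water libraries. The polyunsaturated sum was 534 to 853 FPKM in extract libraries and 681 to 1174 FPKM in water libraries, so only the monounsaturated sum separated the groups. Pairs of genes across the branches did not all separate the groups. Scd1 was 12.5 to 14.5 times Fads1 in extract libraries and 16.8 to 24.9 times Fads1 in water libraries. Scd1 over Fads2 overlapped, at 6.17 to 10.2 in extract libraries and 8.50 to 21.1 in water libraries. The elongase ratio of Elovl6 to Elovl5 was 0.0285 to 0.0644 in extract libraries and 0.0781 to 0.166 in water libraries. Fads2 over Fads1, both of the polyunsaturated branch, overlapped widely, at 1.23 to 2.34 in extract libraries and 1.02 to 2.03 in water libraries.

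**Figure D4:**
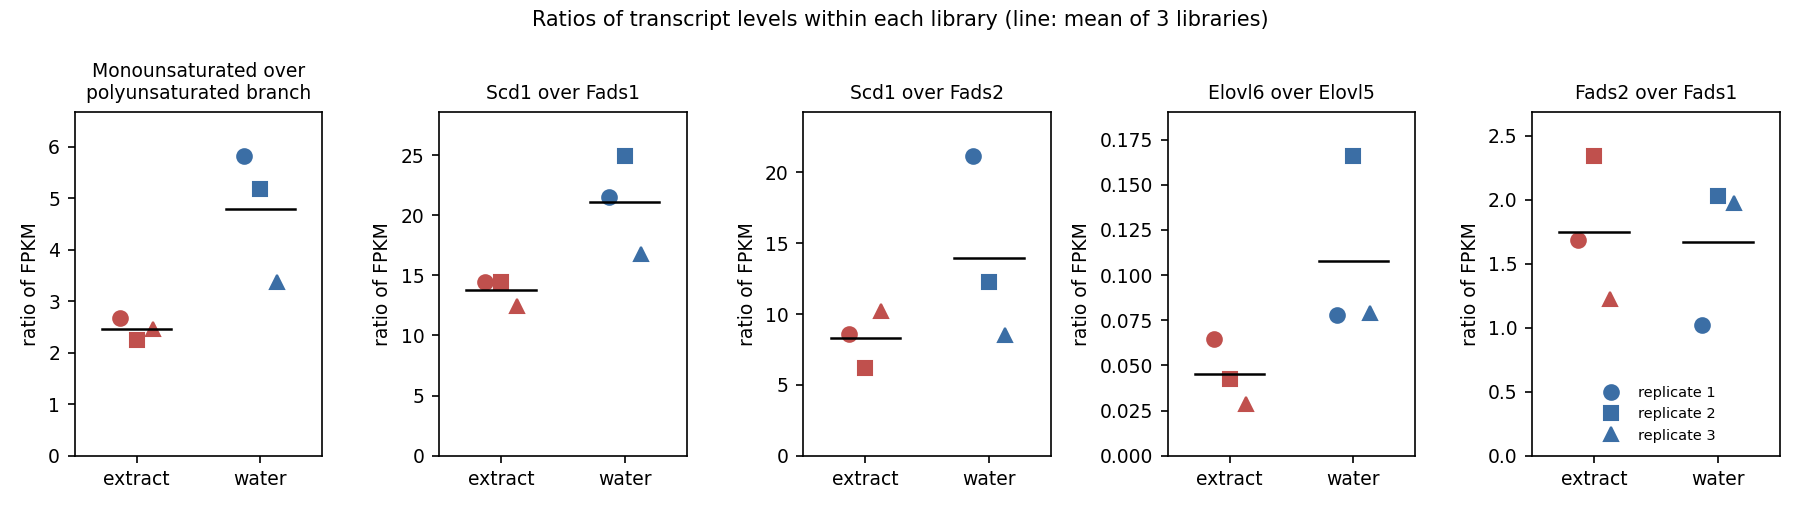
Ratios of FPKM within each library, extract (red) left of water (blue), with a line at the group mean; all axes start at 0. The branch ratio, Scd1 over Fads1 and Elovl6 over Elovl5 are lower in all 3 extract libraries than in any water library, while Scd1 over Fads2 and Fads2 over Fads1 overlap.

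The enzymes that serve all desaturases and elongases were read from gene lists. Cyb5r3, the reductase that passes electrons to cytochrome b5, had 263.47, 255.97 and 224.30 FPKM in extract 1, 2 and 3, against 337.88, 383.87 and 337.04 FPKM in water 1, 2 and 3. The groups did not overlap (log2 fold change -0.51, limma adjusted p = 0.227). Cytochrome b5 itself, Cyb5a, averaged 1171 ± 25.2 FPKM in extract livers and 1197 ± 141 FPKM in water livers (limma adjusted p = 0.977). Of 5 tested electron supply genes, 0 were called, and Cyb5r3 alone had an unadjusted p below 0.05, against 0.0486% and 10.3% of all genes tested.

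Tecr, the reductase of the last step of each elongation cycle, had 241.31, 263.77 and 220.00 FPKM in extract 1, 2 and 3, against 386.71, 324.62 and 304.52 FPKM in water 1, 2 and 3. These groups did not overlap either (log2 fold change -0.48, limma adjusted p = 0.289). Hsd17b12, the ketoacyl reductase of the same cycle, averaged 55.1 ± 9.29 FPKM in extract livers and 49.2 ± 4.60 FPKM in water livers (limma adjusted p = 0.826). Of 5 tested shared elongation genes, 0 were called and Tecr alone had an unadjusted p below 0.05, against the same 0.0486% and 10.3%. Among other members of the desaturase and elongase families, Fads3 and the ceramide desaturase Degs1 were tested and neither had an unadjusted p below 0.05.

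Genes listed under fatty acid synthesis had 10 of 11 negative fold changes, against 42.5% of all genes tested, and a median log2 fold change of -0.35. 3 were lower at an unadjusted limma p below 0.05, against 3.82%, and 0 were called, against 0.0486%. Acss2, which makes acetyl-CoA from acetate, averaged 36.5 ± 2.94 FPKM in extract livers and 69.4 ± 16.8 FPKM in water livers (limma adjusted p = 0.17). Acacb, an acetyl-CoA carboxylase, averaged 6.28 ± 1.58 FPKM in extract livers and 15.3 ± 5.81 FPKM in water livers (limma adjusted p = 0.239). Acaca, the other acetyl-CoA carboxylase gene, overlapped between the groups, at 8.32 to 12.27 FPKM in extract and 10.24 to 23.37 FPKM in water libraries (limma adjusted p = 0.528). Acly overlapped too, at 18.78 to 23.53 FPKM in extract and 13.93 to 48.14 FPKM in water libraries (limma adjusted p = 0.758). G6pdx, which supplies NADPH, averaged 2.88 ± 1.01 FPKM in extract livers and 5.99 ± 2.29 FPKM in water livers (limma adjusted p = 0.338). Fasn, the fatty acid synthase, overlapped between the groups, at 10.91 to 20.50 FPKM in extract and 10.16 to 32.35 FPKM in water libraries; it and the Elovl6, Fads2 and Elovl5 levels share water 1 as the lowest water library.

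Among the regulators, Srebf1, which encodes SREBP-1c, had 52.44, 26.08 and 26.10 FPKM in extract 1, 2 and 3, against 8.55, 31.85 and 22.23 FPKM in water 1, 2 and 3. The groups overlapped, with the lowest value in water 1 and the highest in extract 1, and the log2 fold change was 0.81 (limma adjusted p = 0.615), against -1.46 for Scd1 and -1.51 for Elovl6. Without water 1 the Srebf1 log2 fold change was 0.30, and without extract 1 it was 0.48. Insig1, a sterol-regulated inhibitor of SREBP processing, averaged 47.5 ± 11.8 FPKM in extract livers and 67.7 ± 9.08 FPKM in water livers (limma adjusted p = 0.391), while Insig2 averaged 51.9 ± 10.7 FPKM in extract livers and 45.7 ± 2.85 FPKM in water livers (limma adjusted p = 0.818). Both Insig genes overlapped between the groups.

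The carbohydrate-sensing factor Mlxipl (ChREBP) averaged 88.6 ± 18.8 FPKM in extract livers and 86.3 ± 13.8 FPKM in water livers, and the LXR gene Nr1h3 averaged 37.8 ± 1.02 FPKM in extract livers and 37.4 ± 5.90 FPKM in water livers. Their small fold changes, 0.03 each, turned sign under several rescalings. Ppara, the fatty acid receptor of the liver, averaged 39.6 ± 2.44 FPKM in extract livers and 56.3 ± 15.2 FPKM in water livers (limma adjusted p = 0.491). Abca1, an LXR target that exports cholesterol, averaged 12.4 ± 0.41 FPKM in extract livers and 9.0 ± 1.97 FPKM in water livers (limma adjusted p = 0.384). Of 20 tested genes in this list 11 had positive and 9 negative fold changes, against 57.5% and 42.5% of all genes tested. Their median was 0.03.

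Downstream, 10 of 14 tested genes of acyl-CoA activation and glycerolipid synthesis had negative fold changes, with a median of -0.15, and 2 were lower at an unadjusted limma p below 0.05. Over all genes tested these shares were 42.5% and 3.82%. Gpam, the first acyltransferase of glycerolipid synthesis, averaged 19.0 ± 3.16 FPKM in extract livers and 31.6 ± 10.6 FPKM in water livers (limma adjusted p = 0.418). Its groups overlapped, at 16.93 to 22.67 FPKM in extract and 20.12 to 41.1 FPKM in water libraries. Dgat1, which makes triglyceride, averaged 11.1 ± 0.63 FPKM in extract livers and 13.6 ± 1.01 FPKM in water livers (limma adjusted p = 0.461). The peroxisomal genes, some of which shorten the DHA precursor made after Elovl2, had 8 of 10 negative fold changes, with a median of -0.23, and 3 were lower at an unadjusted p below 0.05, against the same 42.5% and 3.82%. Ehhadh, a bifunctional enzyme, averaged 119 ± 20.8 FPKM in extract livers and 210 ± 53.1 FPKM in water livers (limma adjusted p = 0.239). Hsd17b4, of the same list, overlapped between the groups. It averaged 120 ± 5.51 FPKM in extract livers and 129 ± 16.7 FPKM in water livers (limma adjusted p = 0.888). Acaa1b, a thiolase, averaged 421 ± 123 FPKM in extract livers and 683 ± 68.9 FPKM in water livers (limma adjusted p = 0.274).

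Markers of the cells in the samples were summed per library. All 8 hepatocyte markers averaged above 1 FPKM; their sum was 62030 to 73990 FPKM in extract and 78310 to 83750 FPKM in water libraries, mostly Alb, at 45370.99 to 58258.81 FPKM in extract and 62159.73 to 71235.65 FPKM in water libraries. Fold changes were positive for 4 of the 8 and negative for 4, their median was -0.03, and Serpina1a was higher at an unadjusted limma p of 0.0195. All 10 Kupffer cell markers had a positive fold change, against 57.5% of all genes tested, and 8 were higher at an unadjusted limma p below 0.05, against 6.50%. Their sum was 210 to 322 FPKM in extract and 130 to 154 FPKM in water libraries. All 8 sinusoidal endothelial markers had a negative fold change, against 42.5% of all genes tested, and 1 was lower at an unadjusted limma p below 0.05, against 3.82%. Their sum was 106 to 126 FPKM in extract and 124 to 147 FPKM in water libraries. The sum of 6 erythroid genes, mostly Hba-a1, was 798 to 969 FPKM in extract and 1167 to 3350 FPKM in water libraries. Fold changes were negative for 5 of the 6, and 3 were lower at an unadjusted limma p below 0.05, against 3.82% of all genes tested. Alas2 went the other way, with a log2 fold change of 0.87 and overlapping groups. Of 8 adipocyte genes, Plin1, Lep and Retn were blank in the table, and Adipoq and Cfd were at most 0.09 FPKM in any library. Cidec was 0.94 to 2.0 FPKM in extract and 1.52 to 5.12 FPKM in water libraries, a log2 fold change of -0.78 that had an unadjusted limma p below 0.05, and Lipe was 2.66 to 3.92 FPKM in extract and 3.05 to 5.62 FPKM in water libraries. Pck1, which hepatocytes also express, was 1633.39 to 1811.38 FPKM in extract and 1690.51 to 2054.36 FPKM in water libraries. The part of the Alb, Kupffer, endothelial, adipocyte and erythroid marker differences in the desaturase and elongase values was not tested.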

How the data were processed

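The 6 libraries held poly(A)-selected mouse liver RNA, 3 per group, grouped by their labels. Per the submitters' processing notes the tools were RSEM 1.2.12, HISAT2 2.0.4, DESeq2 1.4.5 and Bowtie2 2.2.5 and the build GRCm38, without roles or settings. The deposited values, to 2 decimals, carry no unit and were read as the authors' FPKM: weighted by transcript length they came to 118.1% to 120.8% of the expected total in each library, while plain sums differed more. FPKM are relative to the whole library, and abundant liver transcripts can shift the rest. Between libraries the commonest ratio of low values was 1 in all 15 pairs, so depth could not be recovered and is unknown.

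Of 22899 rows, 5161 were blank and dropped, and 11 symbols turned into dates were restored by gene ID. limma 3.58.1 (R 4.3.3) with a trended prior was fitted to log2(FPKM + 1) of all 10282 tested genes, with no covariate, and p-values were adjusted over all of them. The fit was tested on simulated data. The genes described and the gene lists were chosen with earlier results of these data known. Named beside the 10 genes were 10 regulators and partners whatever their result and, per list, up to 4 genes with the smallest p below 0.05; others were named after their values were seen.

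Alternatives covered scaling, filters, pseudocount, prior, weights, a replicate block and leaving out libraries. Tests that need read counts were not run.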

Additional observations from a re-analysis of the deposited data

How the results depend on the processing

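Scd1, Fads1 and Elovl6 kept a negative fold change and an unadjusted limma p below 0.05 under every alternative run. Scd1 and Fads1 passed the adjusted threshold only with library weights (log2 fold changes -1.55 and -0.94, limma adjusted p = 0.0309 and 0.0281); over the other alternatives the adjusted p was 0.0695 to 0.366 for Scd1 and 0.0517 to 0.435 for Fads1. The 3 desaturase and elongase genes lower at an unadjusted p below 0.05 were 6 with library weights (7.27% of all genes), 6 without water 1 and extract 3 and 3 to 5 when 1 library was left out.

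The 5 genes called were 2 with a pseudocount of 0.1 or quantile normalization, 133 with library weights, 57 without water 1 and extract 3, and 0 to 49 when 1 library was left out. They were 0 by limma with no filter (956 higher and 610 lower at an unadjusted p below 0.05), median centring (493 and 568), median-of-ratios scaling (531 and 513) and the replicate block (576 and 346). Where leaving out 1 library gave 0, 415 to 973 were higher and 288 to 623 lower. The block lost no unadjusted call of the desaturases and elongases. Deviations of same-numbered libraries from their group means had correlations of -0.0171, -0.177 and 0.117, and those of differently numbered libraries -0.157 to 0.187. With 3 libraries per group, these values cannot show whether the numbers pair anything.

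Small log2 fold changes turned sign. Elovl1 gave -0.0291 with median centring, -0.022 with median-of-ratios scaling, -0.0121 with upper-quartile scaling, -0.0171 with quantile normalization, -0.0198 with a common sum and -0.0337 without the 20 highest genes. Elovl2 gave 0.000889 with quantile normalization. Mlxipl gave -0.0167 with median centring, -0.0114 with median-of-ratios scaling, -0.000933 with upper-quartile scaling, -0.009 with a common sum and -0.0237 without the 20 highest genes. Nr1h3 gave -0.0151 with median centring, -0.00921 with median-of-ratios scaling, -0.00668 with a common sum and -0.0212 without the 20 highest genes. Cyb5a gave 0.0505 with library weights and 0.0769 without water 1 and extract 3. Leaving out 1 library gave -0.145 to 0.0311 for Scd2, -0.0294 to 0.0692 for Elovl1, -0.17 to 0.0978 for Elovl2, -0.105 to 0.204 for Mlxipl, -0.0493 to 0.15 for Nr1h3 and -0.103 to 0.0643 for Cyb5a. The cause was not tested. The difference in log2 branch ratio, -0.93, was -0.504 with equal weight per gene and -1.16 to -0.769 when 1 library was left out. Depth is unknown, which limits low genes such as Scd2 and Elovl3.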

Other observations

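Scd1 over Elovl6 was 152 to 334 in extract libraries and 146 to 316 in water libraries, so the groups overlapped. Elovl2 over Elovl5, the elongases that follow each other towards DHA, was 0.88, 1.23 and 1.19 in extract 1, 2 and 3, against 0.95, 0.76 and 0.78 in water 1, 2 and 3. Its mean was 1.1 ± 0.188 in extract livers and 0.827 ± 0.105 in water livers, and the groups overlapped through extract 1, which lay below water 1.

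Hacd4, a dehydratase of the elongation cycle that was too low to be tested, had 0.65, 1.02 and 0.82 FPKM in extract 1, 2 and 3, against 0.55, 0.62 and 0.58 FPKM in water 1, 2 and 3. It was chosen after its values were seen, as the shared elongation gene with all extract libraries above all water libraries. Of all genes tested, Hacd4 not among them, 10.0% had their libraries placed this way. The share among genes as low as Hacd4 was not counted.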
